A study of Homo sapiens with 21 samples.

Results

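Nuclear receptors are transcription factors that bind DNA through a zinc finger domain, most often at copies of the short motif AGGTCA or AGAACA, and many are switched by small lipid-soluble ligands such as steroids, retinoic acid, thyroid hormone, oxysterols or fatty acids. Many of them pair with a retinoid X receptor (RXR), while steroid receptors act as pairs of their own kind. In macrophages and microglia they are known as regulators of lipid handling, of the circadian clock and of inflammatory genes. Open chromatin was described here at 42 of these genes in human microglia-like cells, as read by ATAC-seq, where a transposase inserts sequencing adapters into DNA that is not packed away.

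All 7 lines are isogenic and go back to H9, a long-established line of human embryonic stem cells. Besides unedited WT, the edited lines were TREM2-R47H and TREM2-KO (TREM2 is a lipid-sensing surface receptor of microglia), SORL1-A528T and SORL1-KO (SORL1 is an endosomal sorting receptor), CD33 SNP (CD33 is an inhibitory sialic acid receptor) and INPP5D SNP (INPP5D is an inositol phosphatase). Per the labels' protocols the edits were made with CRISPR/Cas9 and were homozygous, unedited H9 carries G and A at the INPP5D variant and the edited line only A, and the SORL1 edits named are R744X and A528T. Cells passed through blood progenitors and 28 days of microglial culture with IL-34, TGF-beta and M-CSF, CD200 and CX3CL1 being added at the end, and 80000 sorted cells went into ATAC-seq. Each line had 3 libraries, 21 in all. Libraries titled SORL1-A528T carry TREM2-KO as their genotype label; they were grouped by title, so every statement on SORL1-A528T concerns libraries so titled. Edited lines came from screened clones, and how many clones each line represents is not stated. Nothing in the labels says that replicates were separate differentiations, so each p reflects how far these libraries scatter, a scatter that may be technical.

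The deposited data are peak lists, 1 per library, with positions and no heights. Peaks that shared at least 1 bp were merged over the 21 lists into 166736 regions, and a library was said to call a region when any of its peaks lay in it. A region belonged to a nuclear receptor gene when that gene's span was its nearest protein-coding span within 100 kb, which gave 522 regions for the 42 genes. At the edge of that limit, an ESRRG region called in 5 libraries lay 100.0 kb away and was kept, and a region near NR4A3 called in 16 libraries lay 101 kb away and was left out.

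Tag depth and the number of calls both differed by replicate number, but not in the same order, and the part of depth in the counts below was not tested. Replicate 1 libraries held 56.5 to 67.4 M tags (1 M being 1000000), replicate 2 libraries 12.8 to 17.5 M and replicate 3 libraries 32.6 to 52.9 M. Nuclear receptor regions called per library numbered 206 to 286, 115 to 179 and 235 to 291, respectively. Of the 309 regions called in 2 to 20 libraries, replicate 1 libraries called 54.4% on average, replicate 2 libraries 26.5% and replicate 3 libraries 61.0%, against 54.0%, 25.8% and 61.8% for all such regions of the genome. As a check of the cells, 14 of 20 microglial marker genes (among them SPI1 and CSF1R) had a region within 1 kb of a gene end called in all 21 libraries, and each library called 14 to 17 of them; TMEM119, SALL1 and FCGR1A were called in 0. Of 9 pluripotency markers 0 to 4 were called per library, with POU5F1 and NANOG in 0. Libraries called 1 to 5 of 10 neural, 2 to 7 of 10 mesenchymal and endothelial, and 1 to 3 of 12 erythroid, megakaryocyte and mast cell markers. The part of such cells in the results was not tested. No share over all genes is given beside these marker counts, so they are descriptions. Of all regions within 1 kb of a gene end, 47.4% were called in all 21 libraries, which is a share of regions and not of genes.

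The promoters that the results turn on are shown first. RefSeq promoter windows (250 bases before to 50 after a transcript start, GRCh38.p14) were matched by symbol for 38 of the 42 genes, 90 windows in all; VDR, NR4A2, NR2F6 and HNF4G had none. The 250 bases before the start are printed 5′ to 3′ on the gene's strand. RARB, a retinoic acid receptor that is itself a textbook target of retinoic acid, is shown with its first 3 windows because they differed in how often they were called. Capitals mark TAGGTCA, the core bound by ROR and REV-ERB receptors, in window 2, and 2 copies of GTTCA in the same direction with 6 letters between them, the retinoic acid response element type, in window 3.
RARB window 1 (chr3:24829071-24829320, + strand): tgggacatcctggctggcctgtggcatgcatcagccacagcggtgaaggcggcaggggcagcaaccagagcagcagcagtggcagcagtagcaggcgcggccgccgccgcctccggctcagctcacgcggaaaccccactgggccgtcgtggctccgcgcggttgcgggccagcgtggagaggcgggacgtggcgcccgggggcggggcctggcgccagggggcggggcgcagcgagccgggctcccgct
RARB window 2 (chr3:25340552-25340801, + strand): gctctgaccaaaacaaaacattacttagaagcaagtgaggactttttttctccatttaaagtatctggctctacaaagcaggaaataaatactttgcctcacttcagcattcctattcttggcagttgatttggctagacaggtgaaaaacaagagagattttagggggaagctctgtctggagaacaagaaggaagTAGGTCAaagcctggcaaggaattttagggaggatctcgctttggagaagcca
RARB window 3 (chr3:25428013-25428262, + strand): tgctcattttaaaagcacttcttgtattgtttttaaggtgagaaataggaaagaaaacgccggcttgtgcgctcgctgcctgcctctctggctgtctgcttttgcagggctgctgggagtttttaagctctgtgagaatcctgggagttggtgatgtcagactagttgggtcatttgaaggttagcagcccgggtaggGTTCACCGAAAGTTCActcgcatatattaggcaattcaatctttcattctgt

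NR4A1 and NR4A3 are immediate early genes, induced within minutes by signals that act through cyclic AMP and calcium. Their first windows are shown because that of NR4A3 was called in all 21 libraries and that of NR4A1 in 7. NR4A1 window 1 lies at the gene's outermost start, and the merged region that it lies in was called in 20. Another region, centred 28.9 kb into NR4A1, was called in all 21. Any starts of NR4A1 outside its 2 windows were not examined. Capitals mark TGACGT, the short cyclic AMP response element.
NR4A1 window 1 (chr12:52022582-52022831, + strand): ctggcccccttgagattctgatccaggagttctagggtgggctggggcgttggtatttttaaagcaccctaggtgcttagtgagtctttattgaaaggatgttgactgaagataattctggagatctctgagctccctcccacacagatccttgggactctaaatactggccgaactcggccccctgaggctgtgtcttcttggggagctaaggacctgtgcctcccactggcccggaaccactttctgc
NR4A3 window 1 (chr9:99821635-99821884, + strand): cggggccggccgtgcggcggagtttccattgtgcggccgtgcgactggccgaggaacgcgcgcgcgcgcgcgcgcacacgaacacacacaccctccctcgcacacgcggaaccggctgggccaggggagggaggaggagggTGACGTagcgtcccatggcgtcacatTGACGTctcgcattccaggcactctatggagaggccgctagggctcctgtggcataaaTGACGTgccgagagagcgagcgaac

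Further windows called in all 21 libraries are those of NR6A1, an orphan receptor of germ cells and early embryos, with the full element TGACGTCA in capitals, and window 3 of NR3C1, the glucocorticoid receptor, where no motif is marked.
NR6A1 window 1 (chr9:124771312-124771561, - strand): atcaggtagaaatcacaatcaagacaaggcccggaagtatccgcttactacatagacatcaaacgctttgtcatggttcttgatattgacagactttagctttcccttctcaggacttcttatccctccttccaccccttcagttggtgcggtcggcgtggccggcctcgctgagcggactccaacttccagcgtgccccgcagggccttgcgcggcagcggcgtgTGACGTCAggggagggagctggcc
NR3C1 window 3 (chr5:143405356-143405605, - strand): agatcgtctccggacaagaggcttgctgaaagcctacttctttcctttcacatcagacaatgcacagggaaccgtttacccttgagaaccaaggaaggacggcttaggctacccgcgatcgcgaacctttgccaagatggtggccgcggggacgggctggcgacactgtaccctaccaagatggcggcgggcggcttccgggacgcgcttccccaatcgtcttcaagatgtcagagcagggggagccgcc
By contrast, window 1 of PPARG, the fatty acid receptor known from fat cells and macrophages, was called in 2 libraries, TREM2-R47H replicates 1 and 3. The merged region that overlaps it also overlaps windows 2 and 3 and was called in 16 libraries. The AGGTCA motifs of window 1 are in capitals.
PPARG window 1 (chr3:12287118-12287367, + strand): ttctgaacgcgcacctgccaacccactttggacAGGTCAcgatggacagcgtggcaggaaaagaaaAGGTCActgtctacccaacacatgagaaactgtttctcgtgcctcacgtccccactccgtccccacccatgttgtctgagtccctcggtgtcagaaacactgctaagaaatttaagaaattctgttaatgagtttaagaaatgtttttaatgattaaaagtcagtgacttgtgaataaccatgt

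A somewhat smaller share of nuclear receptor regions than of all regions was called in every library, and fewer lay at gene ends. Of the 522 regions, 66 (12.6%) were called in all 21 libraries, against 15.4% of all regions and 17.1% of the 131157 regions within 100 kb of any protein-coding gene. A single library called 147 (28.2%), against 25.8% of all regions and 21.8% of those near a gene. The median region was called in 6 libraries (7 for all regions, 9 for those near a gene) and was 729 bp wide (737 bp for all). Only 38 regions (7.28%) lay within 1 kb of a gene end, against 12.2% of regions near any gene; 339 (64.9%, against 53.2%) lay inside a gene and 145 (27.8%, against 34.6%) outside. Of the regions at gene ends, 13 of 38 (34.2%) were called in all 21 libraries, against 47.4%. These shares are descriptions and were not tested. Without the replicate 2 libraries, 134 regions (25.7%, against 27.8% of all regions) were called in all 14 that remained; without the SORL1-A528T libraries, 80 (15.3%, against 18.1% of all regions) were called in all 18.

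**Figure D1:**
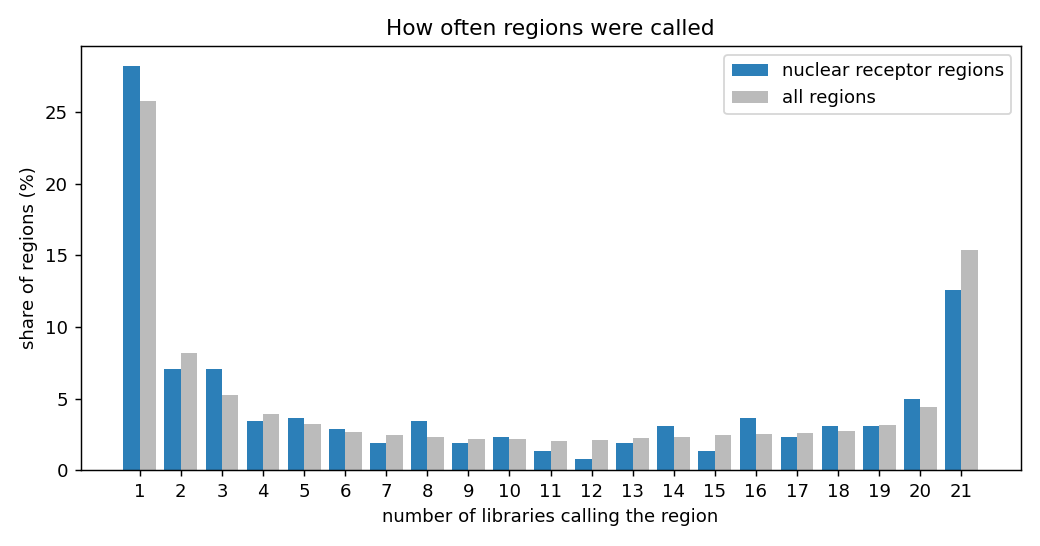
Share of regions (%, vertical axis) by the number of libraries that called them (horizontal axis), for the 522 nuclear receptor regions (blue) and all 166736 regions (grey). Both sets peak at 1 library (28.2% and 25.8%) and at 21 libraries (12.6% and 15.4%).

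The number of regions per gene ran from 1 (NR2E3 and NR5A1) to 50 (RARB), with a median of 9, against 4 for all genes with a region. The 6 genes with most regions were RARB (50), ESRRG (47), THRB (31), ESR1 (30), RXRA (26) and NR3C2 (25). Their spans ran from 114 kb (RXRA) to 769 kb (RARB). The number did not follow span alone: RORA, with a span of 741 kb, had 20, against 26 for RXRA. At least 1 region called in all 21 libraries lay near 29 of the 42 genes. No share over all genes is given beside that count, and these genes had more regions each, so it is a description. RARB had 8 such regions and NR4A2, VDR, ESRRG and ESR1 had 4 each. The 13 genes with none were THRA, PPARA, NR1D1, NR1I3, HNF4A, RXRB, NR2C1, NR2E1, NR2E3, NR2F6, ESRRB, NR5A1 and NR5A2.

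**Figure D2:**
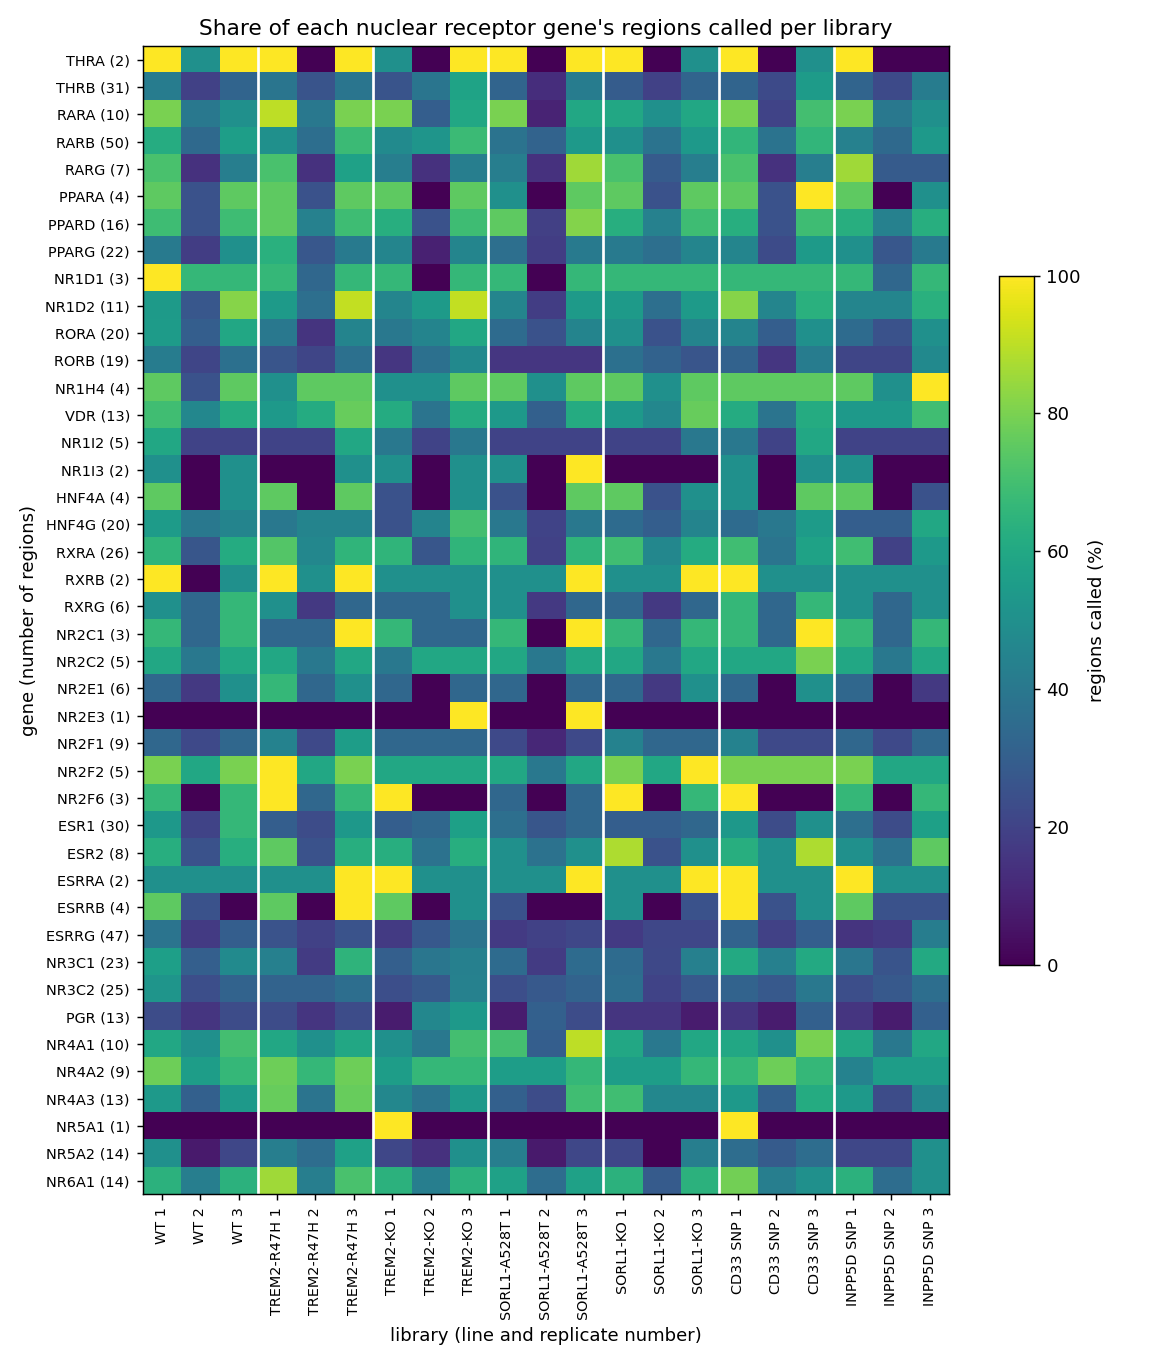
Share of each gene's regions called (%, colour) for the 42 genes (rows, with the number of regions in brackets) in the 21 libraries (columns, 3 per line). Replicate 2 columns are darker for most genes, and genes with 1 or 2 regions can only take the extremes or the middle of the scale.

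At promoters, nuclear receptor genes divided into a set open in every library, a set that varied and a set with no call. Taking each gene's most often called window, 9 of 38 genes (23.7%) were called in all 21 libraries, 19 (50.0%) in 1 to 20 and 10 (26.3%) in 0. Over 15811 protein-coding genes the shares were 43.0%, 29.0% and 27.9%. Leaving out the replicate 2 libraries gave 16 genes (42.1%, against 58.8%) called in every library and 10 in none; leaving out the SORL1-A528T libraries gave 11 (28.9%, against 47.2%) and 10. The 9 genes called throughout were PPARD, NR1D2, NR2C2, ESR2, ESRRA, NR3C1, NR3C2, NR4A3 and NR6A1. The 10 with no call were RORA, NR1H4, NR1I2, NR1I3, HNF4A, NR2E1, NR2E3, NR2F1, NR5A1 and NR5A2. For RORA and NR1H4 the only window given lay at a start inside the gene, so their outermost starts were not covered.

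**Figure D3:**
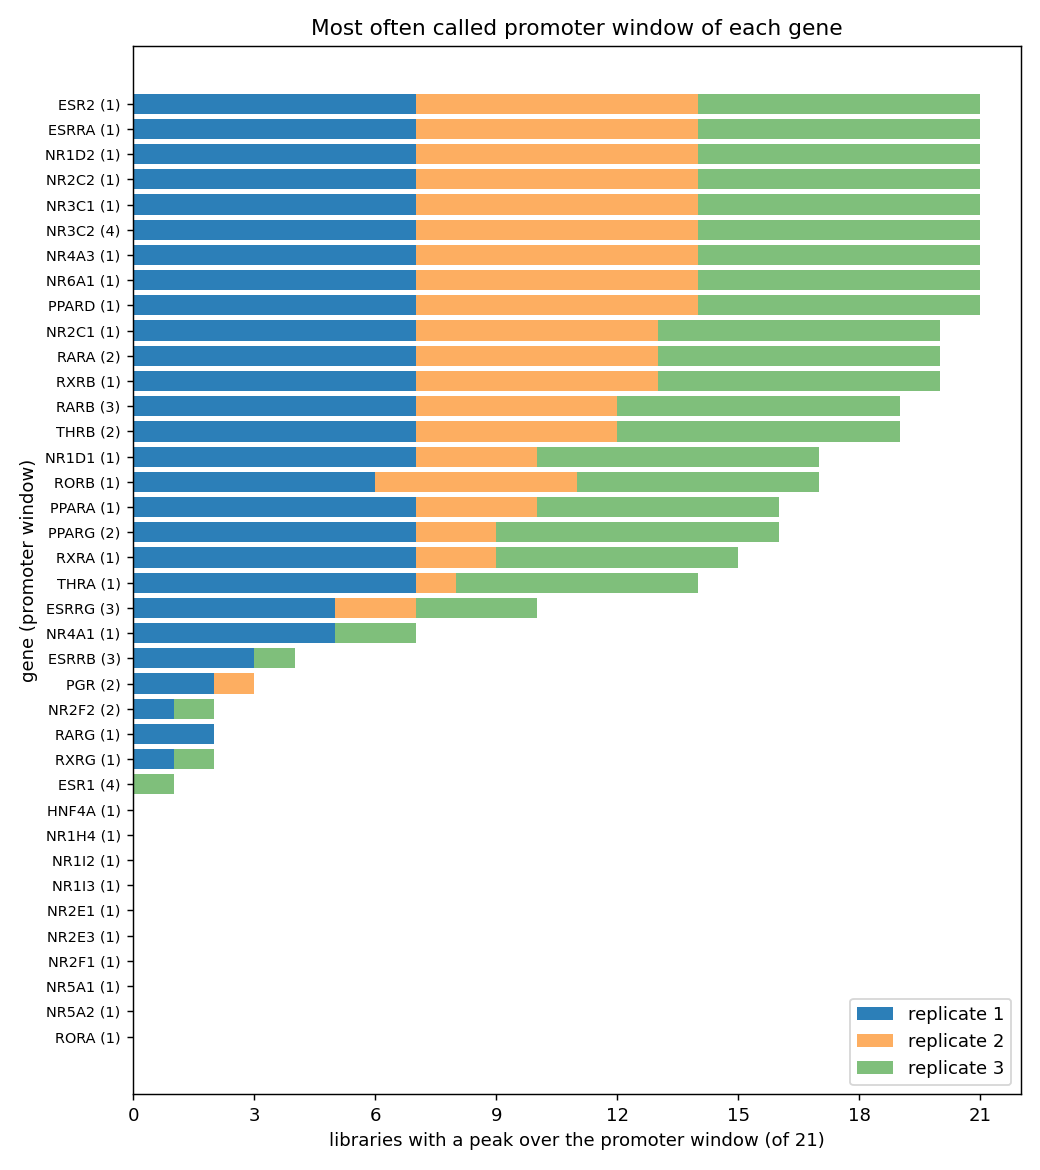
Number of libraries (of 21, horizontal axis) with a peak over each gene's most often called promoter window (number in brackets), stacked by replicate number, 7 libraries each. The 9 genes at the top reach 21, the 10 at the bottom 0, and the replicate 2 share is what most often shortens the bars between them.

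Windows called in 0 libraries held less CG. The 36 such windows of nuclear receptor genes had a median GC content of 47.3% and a median of 4 CG pairs in 300 bases, the 38 called in 1 to 20 had 62.0% and 18.5, and the 16 called in all 21 had 70.7% and 32.5. Over all 22131 windows the medians were 53.0% and 5 for those called in 0 and 65.3% and 27.0 for those called in 21. Among the motifs searched on both strands, AGGTCA lay in 14 of 90 nuclear receptor windows (15.6%), against 11.9% of all windows. AAAGGTCA, the form bound by NR4A receptors, which contains AGGTCA, lay in 4 (4.44%, against 1.04%). The ETS core CGGAAG lay in 5 (5.56%, against 23.7%), and GGGCGG, the GC box, in 45 (50.0%, against 56.3%). A match is a run of letters and not a measured binding site.

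For THRB, RARA and RARB, receptors for thyroid hormone and retinoic acid, a later start was called more often than the first. THRA, the main thyroid hormone receptor of many tissues, had a single window, called in 14 libraries, which were 7 of 7 replicate 1, 1 of 7 replicate 2 and 6 of 7 replicate 3 libraries. THRB window 2 was called in 19, all but WT replicate 2 and SORL1-A528T replicate 2, and window 1 in 9. For RARA, window 1 was called in 0, window 2 in 20 (all but SORL1-A528T replicate 2) and window 3 in 10. RARG, the third receptor of this type, had its window called in 2 libraries, TREM2-R47H and INPP5D SNP replicate 1, while a region inside the gene was called in all 21.

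RARB repeated that pattern over a longer distance. Window 1, at the outer start, was called in 7 libraries, windows 2 and 4 in 0, and window 3 in 19, again all but WT replicate 2 and SORL1-A528T replicate 2. The repeat printed in capitals, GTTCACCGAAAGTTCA, lies at -52 to -37 from the start in window 3. That spacing was found in 1 of 90 nuclear receptor windows and in 10 of all 22131 (0.0452%). Of the 50 RARB regions, 8 were called in all 21 libraries, among them chr3:25293527-25295388 inside the gene, whose peaks came ahead of a median of 94.6% of the peaks in their library's list. That share is called the list position below. It gives the order of peaks as deposited. Whether that order follows strength was not tested, since the lists give no height. Lists of equal length, an alternative used below, were cut in the same order. WT libraries called 31, 17 and 28 of the 50 regions, TREM2-R47H 25, 18 and 34, TREM2-KO 24, 26 and 34, SORL1-A528T 19, 16 and 27, SORL1-KO 25, 19 and 27, CD33 SNP 33, 19 and 33, and INPP5D SNP 22, 17 and 27. These counts overlapped between all lines, and within 6 of the lines replicate 2 was the lowest.

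**Figure D4:**
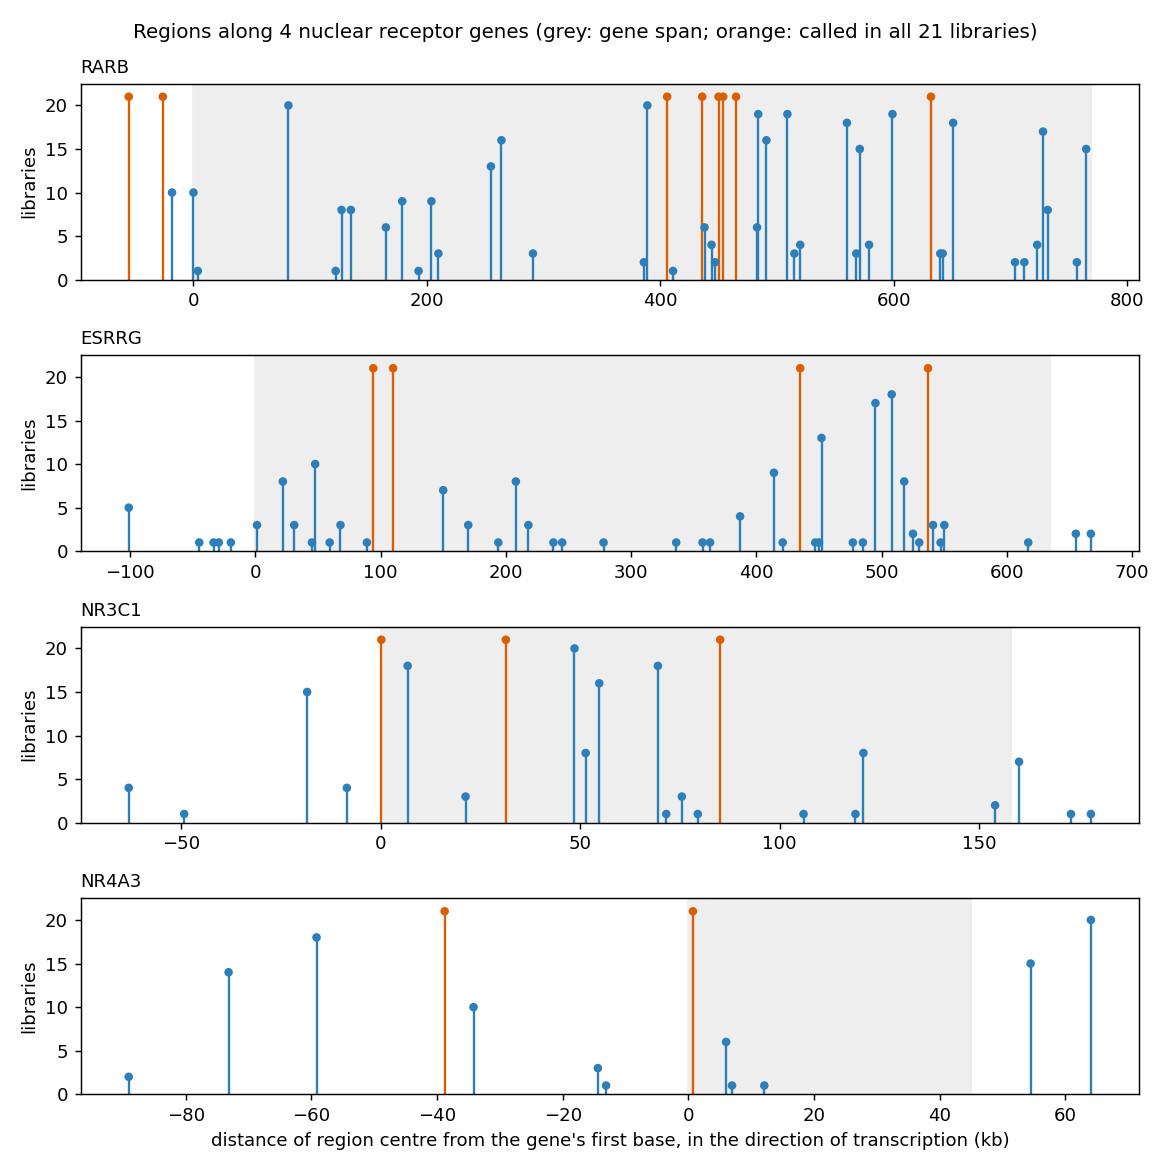
Regions near RARB, ESRRG, NR3C1 and NR4A3 by the distance of their centre from the gene's first base (kb, horizontal axis) and the number of libraries calling them (vertical axis); grey marks the gene span and orange the regions called in all 21 libraries. RARB has 8 orange regions, ESRRG 4, NR3C1 3 and NR4A3 2.

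The lipid-sensing PPARs, which pair with RXR on DNA, were called at different rates. PPARD, expressed in most tissues, had 3 of 16 regions called in all 21 libraries, including its promoter (chr6:35341744-35345846). PPARA, the receptor of fatty acid oxidation, had window 1 called in 16 libraries; INPP5D SNP replicate 3 lacked it, as did replicate 2 of TREM2-KO, SORL1-A528T, CD33 SNP and INPP5D SNP. PPARG windows 2 and 3, at nearly the same start, were called in 16 libraries and missed in replicate 2 of 5 lines, and windows 4 to 6 were called in 0. Both PPARG regions called in all 21 lay inside the gene, at chr3:12328224-12329404 and chr3:12405306-12406475.

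REV-ERB and ROR receptors compete for the same DNA sites in the circadian clock, REV-ERBs as repressors and RORs as activators. NR1D2 (REV-ERB beta) had its promoter region, chr3:23943639-23947014, called in all 21 libraries at a median list position of 98.1%, and its window 2 held 2 E-boxes (CACGTG), beginning at -155 and -105 from the start; the E-box lay in 10.0% of nuclear receptor windows and 8.34% of all. NR1D1 (REV-ERB alpha) was called in 17, all but replicate 2 of TREM2-KO, SORL1-A528T, CD33 SNP and INPP5D SNP. RORA had no call over its 1 window, which lay at a start inside the gene, while another region inside the gene (chr15:60634651-60636667) was called in all 21. The RORA region nearest to the gene's outermost start was called in 1 library. RORB, the form of neurons and retina, had window 1 called in 17 libraries. Each SORL1-A528T library lacked that call, as did INPP5D SNP replicate 2, whereas WT, TREM2-R47H, TREM2-KO, SORL1-KO and CD33 SNP each had it in 3 of 3. The merged RORB promoter region was called in 18 libraries, 1 of them SORL1-A528T replicate 2, so the absence concerns the 300 bases of the window. RORB was singled out after its values were seen; over all windows, 0.122% were lost in this way in SORL1-A528T against WT and 0.294% against SORL1-KO.

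Of the RXRs, the shared partners, RXRB was called in 20 libraries (all but WT replicate 2), RXRA window 1 in 15 and RXRG in 2 (WT replicate 3 and CD33 SNP replicate 1). RXRA lacked the call in replicate 2 of WT, TREM2-KO, SORL1-A528T, SORL1-KO and CD33 SNP and in SORL1-A528T replicate 3. Its 26 regions were called at 17, 7 and 16 in WT, 19, 12 and 17 in TREM2-R47H, 17, 7 and 17 in TREM2-KO, 17, 5 and 17 in SORL1-A528T, 18, 12 and 16 in SORL1-KO, 18, 10 and 15 in CD33 SNP, and 18, 5 and 14 in INPP5D SNP. The second number of each line, from the shallowest library, was the lowest, and the other numbers ran from 14 to 19.

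Receptors for bile acid, vitamin D and foreign compounds had no call over the promoter windows given. VDR had no window. VDR, the vitamin D receptor of macrophages among other cells, had 4 of 13 regions called in all 21, with chr12:47903126-47905683 at a gene end. NR1H4, the bile acid receptor FXR, had no call over its only window, which lay at a start inside the gene. Its outermost start was not covered. A region 1194 bp beyond the gene (chr12:100565608-100568824) was called in all 21 libraries at a median list position of 97.0%. Nearness in position does not tie a region to a gene. NR1I2 and NR1I3, the xenobiotic receptors PXR and CAR, had 5 and 2 regions. HNF4A, a liver and gut regulator, had a region at a gene end called in 13 libraries but none over its windows. HNF4G had 3 of 20 regions called in all 21.

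Among orphan receptors of the NR2 type, NR2C2 was called at its promoter in all 21 libraries and NR2C1, its partner, in 20 (all but SORL1-A528T replicate 2). NR2F6, a repressor in lymphocytes, had a gene-end region called in 12 libraries. For NR2F1 and NR2F2, the COUP-TF regulators of neural, venous and mesenchymal cells, gene-end regions were called in 19 and 20 libraries, although the NR2F1 windows were at 0 and NR2F2 window 2 at 2. NR2E1, a regulator of neural stem cells, had 0 of 6 regions called in all 21 and its widest call, in 17 libraries, lay 31924 bp outside the gene. NR2E3, of photoreceptors, had 1 region, called in 2 libraries.

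For estrogen receptors and their orphan relatives, the most often called window of each gene ranged from 21 libraries to 1. ESR2 was called in all 21 libraries at windows 1 and 2, in 8 and 6 at windows 3 and 4, and in 0 at window 5. ESR1 windows were called in 0 or 1, the single library being TREM2-R47H replicate 3, yet 4 of its 30 regions, inside the gene, were called in all 21. ESRRA, a regulator of mitochondrial genes, was called in all 21; its promoter region is shared with CATSPERZ. ESRRB, of pluripotent and trophoblast stem cells, was called in 4 libraries at most at its windows. ESRRG, of oxidative tissues, had 22 of its 47 regions called in a single library. WT libraries called 18, 8 and 14 of them, TREM2-R47H 12, 9 and 12, TREM2-KO 8, 13 and 18, SORL1-A528T 8, 9 and 10, SORL1-KO 8, 10 and 10, CD33 SNP 15, 9 and 14, and INPP5D SNP 7, 8 and 20. The lines overlapped in these counts.

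Of the steroid receptors, NR3C1, the glucocorticoid receptor, was open at all of its 7 windows. Windows 1 and 3 to 7 were called in 21 libraries and window 2 in 20, TREM2-KO replicate 2 lacking it. They lie in 2 regions, chr5:143434591-143436051 and the wider chr5:143402043-143406147, at median list positions of 91.2% and 98.6%. In the wider region each library's own peaks covered 2898 to 4105 bp. NR3C2, the mineralocorticoid receptor, was called at windows 1 to 4 in 12, 18, 18 and 21 libraries within chr4:148441460-148446274, at a median list position of 99.7%. PGR, the progesterone receptor, was called in 2 or 3 libraries at its windows. Its other gene end held a region called in all 21.

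NR4A2 and NR4A3 had the 2 widest merged regions of the 42 genes. At NR4A2 (chr2:156321270-156336213) the merged region spanned 14944 bp, and the peaks of single libraries in it covered a lowest of 4581, a median of 7097 and a highest of 14721 bp in 1 to 4 peaks. A further region 7502 bp outside the gene, chr2:156340223-156344045, was also called in all 21; median list positions were 99.9% and 99.7%. At NR4A3 the promoter region, chr9:99818880-99826349, spanned 7470 bp, with 3178 to 7470 bp covered per library (median 5993), at a list position of 99.6%. The 3 TGACGT matches printed above begin at -109, -83 and -25 from its start; TGACGT lay in 7.78% of nuclear receptor windows and 8.92% of all. At NR4A1 the region at its outermost start, chr12:52022486-52026341, was called in 20 libraries (all but SORL1-A528T replicate 2), but the peak reached window 1 in only 7. Of the 10 NR4A1 regions, 2 inside the gene were called in all 21, centred 10.2 and 28.9 kb from its first base. NR5A1 and NR5A2, steroidogenic and liver receptors, had no promoter call, and NR6A1 was called in all 21.

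By line, nuclear receptor regions were called at similar rates. The share of possible calls was 43.8% ± 14.8 in WT, 45.5% ± 12.6 in TREM2-R47H, 43.4% ± 11.1 in TREM2-KO, 35.8% ± 12.4 in SORL1-A528T, 39.9% ± 8.36 in SORL1-KO, 45.7% ± 12.9 in CD33 SNP and 39.8% ± 11.2 in INPP5D SNP (SD, n = 3 each). These SDs include the differences between replicate numbers given above, and the replicate values of all 7 lines overlapped. Over all regions the same shares were 46.2%, 45.7%, 46.6%, 36.3%, 43.6%, 49.1% and 42.9%. Because the number of calls differed between the libraries of each line, lines were compared on a library-adjusted call: the call minus the mean call, in that library, of all regions called in equally many libraries, averaged over a gene's regions. Averaged over the 522 regions it lay between -0.0121 ± 0.00571 (SORL1-KO) and 0.0214 ± 0.0128 (TREM2-R47H; SD, n = 3).

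No nuclear receptor gene passed the test in any comparison. The library-adjusted call was tested with limma over all 21 libraries for the 8732 genes with at least 5 regions, 29 nuclear receptor genes among them, with Benjamini-Hochberg adjustment per comparison and a threshold of 0.05. The comparisons were each edited line against WT, TREM2-R47H against TREM2-KO, SORL1-A528T against SORL1-KO, and any difference among the 7 lines. Nuclear receptor genes called numbered 0 in all 9, against 0% of all genes in 8 of them and 0.0115% (1 gene) in INPP5D SNP against WT. The smallest adjusted p of a nuclear receptor gene ran from 0.198 to 1.000. At an unadjusted p under 0.05, which is no call, there were 4 of 29 genes in TREM2-R47H against WT (13.8%, against 8.43% of all genes), 0 in TREM2-KO (3.52%), 0 in SORL1-A528T (4.09%), 1 in SORL1-KO (4.75%), 0 in CD33 SNP (2.52%) and 0 in INPP5D SNP (2.87%), 4 in TREM2-R47H against TREM2-KO (13.8% in both), 3 in SORL1-A528T against SORL1-KO (10.3%, against 5.92%) and 2 for any difference (6.90%, against 6.08%).

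In TREM2-R47H the library-adjusted call of RORA was the lowest of the 7 lines. RORA was called in 11, 6 and 12 of its 20 regions in WT and in 8, 3 and 9 in TREM2-R47H. The adjusted values were 0.0261, 0.0947 and 0.0854 in WT and -0.0786, -0.127 and -0.0540 in TREM2-R47H. The difference was -0.155 (SE 0.0530), and its adjusted p by limma was 0.486. Against TREM2-KO, with 8, 9 and 12 regions called, the RORA difference was -0.138 (SE 0.0530, adjusted p 0.285). Against WT, RORA also had the smallest or second smallest p in CD33 SNP (-0.105, SE 0.0530, adjusted p 1.000) and INPP5D SNP (-0.0943, SE 0.0530, adjusted p 1.000); these comparisons share the WT libraries.

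RXRG, with 6 regions, was called in 3, 2 and 4 in WT, 3, 1 and 2 in TREM2-R47H, 2, 2 and 3 in TREM2-KO and 2, 1 and 2 in SORL1-KO. Its adjusted values in WT were -0.0128, 0.0922 and 0.163, and in SORL1-KO -0.105, -0.141 and -0.0982. SORL1-KO minus WT was -0.195 (SE 0.0674, adjusted p 0.938). The other RXRG differences from WT with the smallest p were -0.163 in TREM2-R47H (SE 0.0674, adjusted p 0.519) and -0.126 in TREM2-KO (SE 0.0674, adjusted p 0.999). RXRG also had the smallest p among these genes for any difference among the lines (adjusted p 0.803).

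NR2E1 was called in 4, 2 and 3 of 6 regions in TREM2-R47H and in 2, 0 and 2 in TREM2-KO. Of these 6 regions, 3 were called in a single library each, 2 of them in TREM2-R47H and 1 in CD33 SNP. Without the 2 TREM2-R47H regions NR2E1 would have fallen below the 5 regions needed for a test, so it was tested only through the line where it was high, and its difference is given as a description. Adjusted values were 0.294, 0.181 and 0.106 in TREM2-R47H and 0.0725, -0.234 and -0.128 in TREM2-KO. The difference was 0.290 (SE 0.0873, adjusted p 0.198). Without TREM2-KO replicate 1, the highest NR2E1 value of its line, it was larger, at 0.376 with an adjusted p of 0.0482, and 100 of all genes were then called where 0 had been. NR4A3 was called in 10, 5 and 10 of 13 regions in TREM2-R47H, 7, 4 and 7 in WT and 6, 5 and 7 in TREM2-KO. Its TREM2-R47H difference was 0.180 against WT (SE 0.0772, adjusted p 0.543) and 0.184 against TREM2-KO (SE 0.0772, adjusted p 0.312). NR5A2 was called in 6, 5 and 8 of 14 regions in TREM2-R47H and 7, 1 and 3 in WT, where the groups overlapped (0.203, SE 0.0900, adjusted p 0.559), and the sign turned, to -0.0709, with lists of equal length.

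Between the SORL1 lines, NR4A1 was called in 7, 3 and 9 of 10 regions in SORL1-A528T and 6, 4 and 6 in SORL1-KO, a library-adjusted difference of 0.182 (SE 0.0736, adjusted p 0.738). NR2F2 was called in 3, 2 and 3 of 5 regions against 4, 3 and 5, a difference of -0.192 (SE 0.0810, adjusted p 0.758). Of these 5 regions, 1 was called only in TREM2-R47H replicate 1 and SORL1-KO replicate 3. Without it NR2F2 would have fallen below the 5 regions needed for a test. NR2F2 was thus tested only through lines where it was high, and its differences are given as descriptions. NR2F1 was called in 2, 1 and 2 of 9 regions against 4, 3 and 3 (-0.143, SE 0.0659, adjusted p 0.815). For both COUP-TF genes every SORL1-A528T library lay below every SORL1-KO library in adjusted call. Both had an unadjusted p under 0.05 by limma from these same values, so that order adds no support. NR2F2 was also higher in TREM2-R47H than in TREM2-KO (0.197, SE 0.0810, adjusted p 0.304), and that sign turned, to -0.0768, with lists of equal length. In the remaining comparisons the genes with the smallest p had adjusted p by limma from 0.938 to 1.000. They were PGR in TREM2-KO against WT (0.144, SE 0.0792) and NR4A1 and PPARD in SORL1-A528T against WT (0.124, SE 0.0736, and 0.132, SE 0.0821). The others were ESR1 in SORL1-KO (-0.106, SE 0.0655), NR2C2 in CD33 SNP (0.123, SE 0.0617) and NR4A2 in INPP5D SNP (-0.122, SE 0.0662), each against WT. NR2C2 had 5 regions, and CD33 SNP replicate 3 called 4 of them, at least 1 of which no other library called. Without that region NR2C2 would not have been tested, so its test rests on the line where it was high and its difference is a description.

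**Figure D5:**
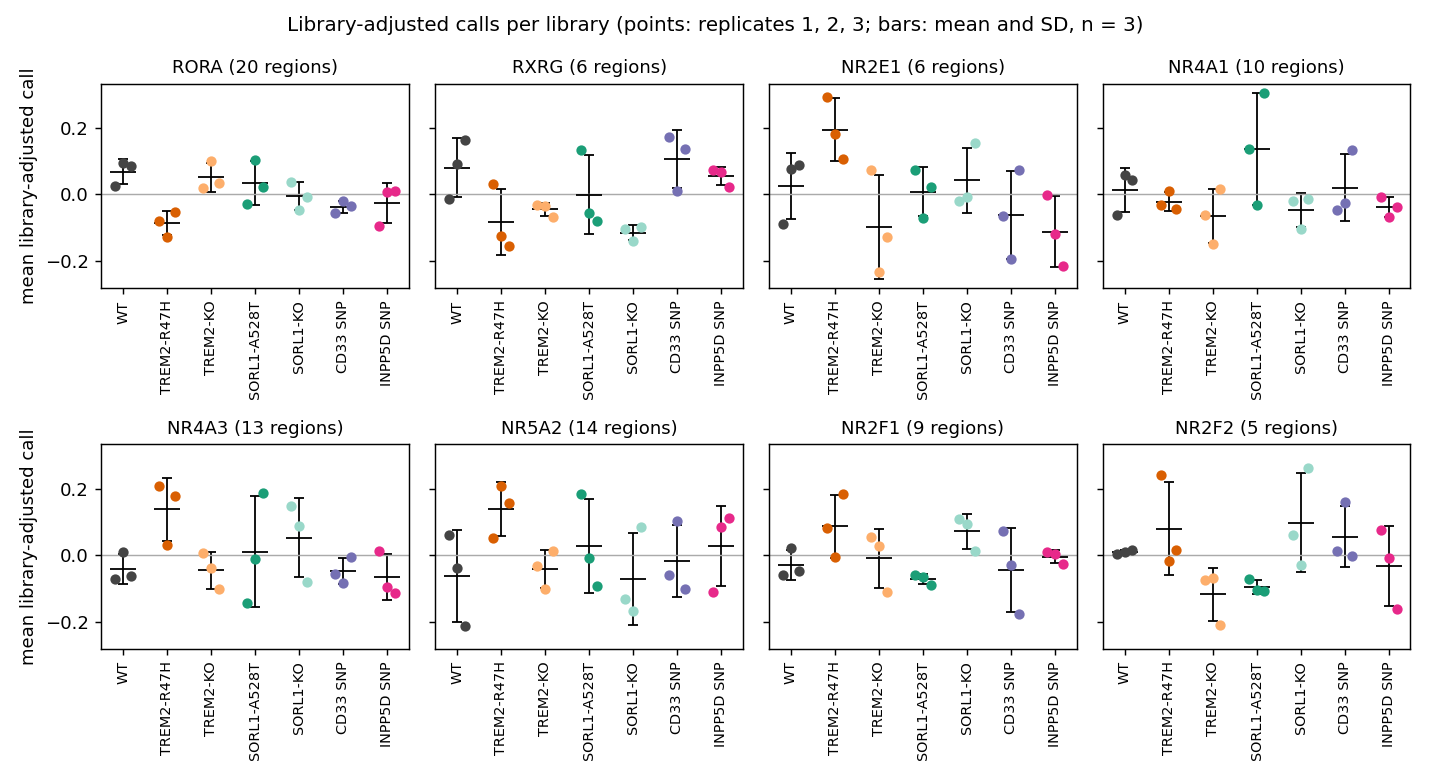
Mean library-adjusted call (vertical axis, no unit) of 8 genes in each library of the 7 lines; points are replicates 1, 2 and 3 from left to right, and the bars give mean and SD (n = 3). TREM2-R47H points lie below WT for RORA and above TREM2-KO for NR2E1, and for most other pairs the points overlap. The genes shown had an unadjusted p under 0.05 by limma in at least 1 comparison, so such gaps add no support.

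The retinoid, steroid and clock pathways around the receptors were also without a call. Of the lists of genes around them, 15 of 27 coregulators were tested, 17 of 28 genes of ligand and cofactor metabolism, 7 of 16 PPAR targets, 14 of 18 glucocorticoid targets, 11 of 18 clock genes, 11 of 20 retinoic acid and vitamin D targets and 6 of 12 receptor chaperones; 0 passed in any of the 8 pairwise comparisons. The median differences of retinoic acid and vitamin D targets from WT ran from 0.0235 (SORL1-A528T) to 0.0937 (TREM2-R47H, where 11 of 11 were higher and 1 had an unadjusted p under 0.05), beside a median over all genes of 0.00820 in TREM2-R47H. All 6 of these share the WT libraries. In TREM2-R47H against WT the median was 0.108 for receptor chaperones (4 of 6 higher) and -0.0392 for PPAR targets (3 of 7 higher). The other lists lay between these, and no list median was tested. At gene ends, 15 of 27 coregulators, which RXR pairs and steroid receptors recruit, had a region called in all 21 libraries, and NCOA2 was called in 0. Of the 28 genes of ligand and cofactor metabolism, 7 had such a region and 8 were called in 0, with 8 to 17 called per library. Among those 8 were CYP26B1, CYP24A1 and CYP19A1, which break down retinoic acid and vitamin D and make estrogen. No share over all genes is given beside these gene-end counts, so they are descriptions.

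Single regions present in all 3 libraries for 1 line yet absent from all 3 for another were few and lay mostly in long genes. Counts of 3 against 3 calls allow no test per region, so the share over all regions is given beside each. In TREM2-R47H against WT, 2 of 522 regions (0.383%, against 0.127% of all) were gained and 0 lost (0.303%). The gained regions were chr1:216722919-216724107 inside ESRRG, which covers promoter window 8 of that gene, and chr9:124513425-124514121, 3154 bp outside NR6A1. The ESRRG region was called in 9 libraries: 3 of TREM2-R47H, 3 of CD33 SNP, and 1 each of TREM2-KO, SORL1-A528T and INPP5D SNP. It was thus also the 1 region gained in CD33 SNP against WT (0.192%, against 0.0954%), where 0 were lost (0.0414%). The NR6A1 region was called in 6 libraries, 3 of TREM2-R47H and 1 each of CD33 SNP, INPP5D SNP and SORL1-KO.

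In TREM2-KO against WT, 1 region was gained (0.192%, against 0.0480%), chr3:25007816-25008620 inside RARB, which was called in 9 libraries, and 0 were lost (0.0576%). SORL1-A528T and SORL1-KO lacked the same ESRRG region that WT had in 3 of 3, chr1:216929791-216930458 (1 lost, 0.192%, against 0.487% and 0.233%), and had 0 gained (0.0114% and 0.0624%); it was called in 8 libraries, and both comparisons share the WT libraries. INPP5D SNP against WT had 0 gained (0.0276%) and 0 lost (0.142%).

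Between the lines edited at the same gene, TREM2-R47H had 3 regions gained (0.575%, against 0.345%) and 2 lost (0.383%, against 0.288%) relative to TREM2-KO. Gained were the NR6A1 region above, chr6:152112130-152112834 inside ESR1, and chr1:217089490-217090322 inside ESRRG, which covers windows 3 and 4. Lost were chr1:216987187-216987806 inside ESRRG and chr3:24956131-24956932 inside RARB. SORL1-A528T had 0 gained (0.112%) and 3 lost (0.575%, against 1.10%) relative to SORL1-KO: the ESRRG region at windows 3 and 4, chr3:12400471-12401171 inside PPARG and chr6:152049511-152050229 inside ESR1. The ESRRG window 3 region was called in 10 libraries, 3 of TREM2-R47H, 3 of SORL1-KO, 2 of INPP5D SNP, 1 of WT and 1 of CD33 SNP. With counts this small, 1 region moves a share by 0.192 percentage points.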

How the data were processed

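ATAC-seq peak lists of 21 libraries (7 lines, 3 each) were used. The submitters' processing notes name cutadapt 1.18, STAR 2.7, HOMER 4.10 and DESeq2, the last with no stated use. HOMER findPeaks called peaks in each library alone, per the file headers, at a peak size of 500, a local fold of 4 over 10000 bp and a local Poisson p of 1.00e-04. The score column, as deposited by the authors, holds 1 for every peak. The genome build and any shift of reads for the transposase cut are not given in the sources used here; of RefSeq GRCh38.p14 promoter windows, 43.1% overlapped regions that every library called, a share of 2.81% or 2.80% after shifting them 10000 bp. Coordinates are those of the lists, counted from 1.

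Regions, calls and the library-adjusted call were computed as the report describes, for 19970 protein-coding genes. A region at the same distance from several gene spans went to each of them (5 of the nuclear receptor regions). A gene end is either end of a span, as the gene table has no strand. A promoter window was called when a library's own peak overlapped it. Tests used limma 3.58.1 in R 4.3.3, two-sided, with all lines in 1 fit, and were tested on simulated data. The members, gene lists and tests were chosen with earlier results of these data known. Genes named with values were those with the 2 smallest p per comparison, those with a region called in 3 of 3 against 0 of 3 libraries, the 6 with most regions and those with a partly called gene end. Of 10 pluripotency markers, 9 matched the gene table. Alternatives were regions called in at least 2 libraries, at least 10 or 2 regions per gene, gene ends alone, regions within 10 kb, peaks covering 50% of a region or more, lists limited to the 39736 peaks of the shortest, raw calls, peak number as covariate, a replicate block and leaving out each replicate. A single gene per region, and counts without replicate 2 or SORL1-A528T libraries, were chosen after seeing the data. Peaks on chromosomes Y and M and unplaced sequence (0.0821% of 1604926) were left out.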

Additional observations from a re-analysis of the deposited data

How the results depend on the processing

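No nuclear receptor gene was called under any alternative run, with 1 exception: NR2E1 in TREM2-R47H against TREM2-KO (0.376, adjusted p by limma 0.0482) without TREM2-KO replicate 1, so that the count over the fits that left out 1 library ran from 0 to 1; NR2E1 was tested only through regions seen in TREM2-R47H alone, and the cause of the change was not tested. Over all genes that comparison called 0, but 13 with at least 10 regions per gene, 7 with at least 2, 24 with lists of equal length, 59 with the replicate block, 1 without TREM2-R47H replicate 2 and 100 without TREM2-KO replicate 1. SORL1-A528T against SORL1-KO called 0, but 4 with at least 10 regions, 8 with lists of equal length and 8 with the replicate block, and lists of equal length called 5, 3, 2 and 1 genes for TREM2-R47H, SORL1-A528T, SORL1-KO and CD33 SNP against WT and 15 for any difference. INPP5D SNP against WT called 1 gene, and 1 with the replicate block, but 0 with at least 10 or 2 regions, gene ends alone, regions within 10 kb, lists of equal length, raw calls or a cover of at least 50%, and 0 without any 1 of WT replicates 1, 2 and 3 and INPP5D SNP replicates 1 and 2. With the replicate block, 0 nuclear receptor genes were called in each comparison. Libraries of different lines with the same replicate number had correlated deviations (r over 0.1) in 47 of 63 pairs (median r 0.182, range -0.0650 to 0.588), against 24 of 126 pairs with different numbers (median -0.116), and 14 of 21 libraries correlated best with their own number. Libraries with the same number thus tended to deviate together, a hint from the data; since not every pair exceeded 0.1 and the labels give the numbers no shared source, they were not taken as a pairing.

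Of the gene differences, NR5A2 in TREM2-R47H against WT and NR2F2 in TREM2-R47H against TREM2-KO changed sign with lists of equal length (-0.0709 and -0.0768); the cause was not tested. Calls by line fell with lists of equal length, which drop peaks by construction, to 22.3% (WT), 21.3% (TREM2-R47H), 21% (TREM2-KO), 21.5% (SORL1-A528T), 21.8% (SORL1-KO), 21.1% (CD33 SNP) and 21.5% (INPP5D SNP). Over regions called in at least 2 libraries they were 59.7% (WT), 60.7% (TREM2-R47H), 57.7% (TREM2-KO), 47.8% (SORL1-A528T), 54.5% (SORL1-KO), 61.6% (CD33 SNP) and 54.0% (INPP5D SNP). Regions called in every library of a line and none of the other, gained and lost together, rose when a replicate number was left out, since 2 against 0 is then enough: 11 to 16 for TREM2-R47H, 8 to 13 for TREM2-KO, 3 to 23 for SORL1-A528T, 4 to 17 for SORL1-KO, 5 to 12 for CD33 SNP and 6 to 12 for INPP5D SNP against WT, 10 to 21 between the TREM2 lines and 9 to 18 between the SORL1 lines. With lists of equal length they were 4 (TREM2-R47H), 0 (TREM2-KO) and 0 (CD33 SNP) against WT and 2 between the TREM2 lines. With a cover of at least 50% they were 4 (SORL1-A528T), 2 (SORL1-KO) and 0 (CD33 SNP) against WT and 5 between the SORL1 lines. The replicate 2 libraries held the fewest tags (12.8 to 17.5 M) and called the fewest nuclear receptor regions in each line; a missing call there does not show a closed region, and the part of depth was not tested.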
